A study of Caenorhabditis elegans with 21 samples.

Results

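The genes phat-1 to phat-6 of Caenorhabditis elegans are named for the pharyngeal glands, and they are described here across wild-type worms and mutants of the HIF-1 pathway, 7 genotypes in all. HIF-1 is the hypoxia-inducible transcription factor. The members were taken by name and were chosen with earlier results of these data in view. Which comparison was used for the choice is not recorded, and rhy-1 against N2, in which phat-5 had been named, is treated here as that comparison, as if the members had been chosen by their changes in it. They are 6 of the 21752 genes obtained when the deposited transcripts were matched to WormBase sequence names of the WBcel235 assembly and their estimated counts were summed per gene. The family members phat-7 and phat-8 were not members, and phat-7 is brought in where reads were divided between it and phat-3. RNA came from whole young adults with no eggs visible, fed on OP50, with 30 to 50 worms in a sample, and was made into SmartSeq2 libraries, a protocol that keeps no strand information. Each genotype had 3 libraries. The wild type was N2, and the single mutants were vhl-1(ok161), rhy-1(ok1402), egl-9(sa307) and, lacking the factor itself, hif-1(ia4). The double mutants, written without alleles below, were egl-9(sa307);vhl-1(ok161) and, with the factor removed, egl-9(sa307) hif-1(ia4). The labels name no separate cultures, so a p-value here speaks only of the spread between libraries, which may be technical.

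The pharyngeal glands are secretory cells that empty into the lumen of the feeding organ, and the helix-loop-helix factor HLH-6 is known to be needed for the expression of many gland genes in C. elegans. The phat genes encode small secreted proteins related to toxins with ShK domains, and the role of each single member is not given here. In the HIF-1 pathway EGL-9 hydroxylates HIF-1, VHL-1 recognises the hydroxylated protein and leads to its breakdown, and RHY-1 is a membrane protein that works above EGL-9.

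The libraries held 7329864 to 10102598 estimated counts each. The members lie in 4 places in WBcel235 and all are protein coding. On chromosome I, phat-1 (C46H11.8, 5044198 to 5045720, 5 exons) and phat-2 (C46H11.9, 5046394 to 5048003, 4 exons) are neighbours on the minus strand with 673 bases between them. Each overlaps a non-coding gene on the other strand, C46H11.12 and anr-10, whose reads cannot be told apart without strand information. On chromosome V, phat-5 (T05B4.11, 4121489 to 4122515, minus strand, 3 exons) and phat-4 (T05B4.3, 4129904 to 4130909, plus strand, 3 exons) lie 7388 bases apart. The gene phat-3 (C49G7.4, V, 4043932 to 4044951, plus strand, 3 exons) lies on the same chromosome, 76537 bases below phat-5, and phat-6 (T10B10.6, 15193086 to 15194383, minus strand, 5 exons) is on chromosome X.

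The members split into 3 kinds of pattern over the 7 genotypes. In egl-9, phat-1, phat-2, phat-4 and phat-5 rose against N2, phat-6 fell, and phat-3 did not pass the test. Without hif-1 as well, in egl-9 hif-1, the same 4 genes fell again against egl-9. Without vhl-1 as well, in egl-9;vhl-1, phat-4 and phat-5 were called above N2 and phat-2 was not. In RNA of whole worms, fewer cells of a type and less RNA per cell cannot be told apart.

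Per length, phat-4 and phat-3 were the most abundant members. The deposited levels of phat-4 had means from 40.4 TPM in egl-9 hif-1 to 111 TPM in rhy-1, and those of phat-3 from 29.2 TPM in egl-9;vhl-1 to 51.4 TPM in vhl-1. In vhl-1 and egl-9 hif-1 phat-3 had the higher mean (51.4 against 48.4 TPM, and 47.1 against 40.4 TPM), and in the other genotypes phat-4 had. The means of phat-6 lay between 9.63 and 20.8 TPM. In rhy-1, phat-5 (24.5 TPM) was above phat-6 (12.4 TPM), and in egl-9, phat-2 (11.4 TPM) was above phat-6 (9.63 TPM). The lowest mean in each genotype was that of phat-1, at 0 to 1.82 TPM, except in vhl-1, where phat-5 (0.398 TPM) was below phat-1 (0.525 TPM).

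**Figure D1:**
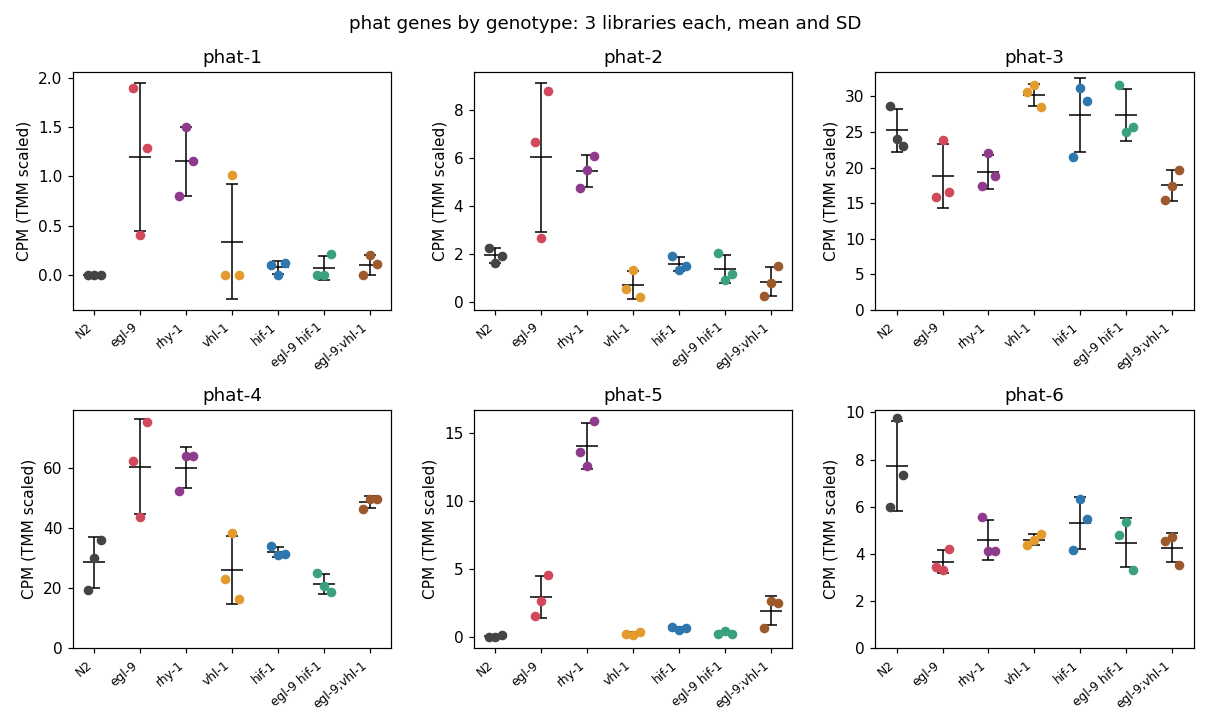
Level of each phat gene in CPM, counts scaled to the library size after TMM, with 1 point for each of 3 libraries per genotype, a bar for the mean and whiskers for the SD. phat-5 is highest in rhy-1 (mean 14 CPM), phat-2 is high in egl-9 and rhy-1 (6.03 and 5.46 CPM), and phat-6 is highest in N2 (7.71 CPM).

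The gene phat-5 went from near 0 to moderate levels. It had 0, 0 and 1 counts in the N2 libraries, 137, 126 and 151 in rhy-1, and 13, 20 and 39 in egl-9. The counts were 5, 26 and 23 in egl-9;vhl-1, 7, 4 and 5 in hif-1, 2, 4 and 2 in egl-9 hif-1, and 2, 1 and 3 in vhl-1. All rhy-1 libraries were above all others, the egl-9 and egl-9;vhl-1 libraries overlapped, and the vhl-1 and egl-9 hif-1 libraries overlapped. Since rhy-1 against N2 is treated as the choosing comparison, it is given for all members as values with no test. There phat-5 was 370-fold higher in CPM, with a counting interval of 66.1 to 14668 that rests on the single N2 count.

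Against egl-9, phat-5 was higher in rhy-1 by 2.25 ± 0.35 on the log2 scale (fold change ± SE from edgeR's quasi-likelihood test, Benjamini-Hochberg adjusted p = 0.00028). The means were 14 ± 1.68 CPM in rhy-1 and 2.92 ± 1.53 CPM in egl-9 (SD, n = 3). It was the only member called in this comparison, 1 of 6 up and 0 down where 3.86% of all tested genes were called up and 3.62% down. The rhy-1 libraries are shared with the choosing comparison, and the call was not made when transcripts were tested 1 by 1 (adjusted p = 0.066).

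The rise of phat-5 in egl-9 was 77.8-fold over N2 (counting interval 13.5 to 3114, edgeR adjusted p = 9.3e-06), again over a single count. That baseline is shared with the choosing comparison, and phat-5 was tested at all only through its level in egl-9, rhy-1 and egl-9;vhl-1. No p of phat-5 that involves N2 or any of these genotypes, the interaction below included, is therefore independent of how the gene was picked. In egl-9 hif-1 it was lower than in egl-9 by 9.59-fold, a log2 change of −3.26 ± 0.53 (edgeR adjusted p = 0.00013). The effect of egl-9 differed with and without hif-1 in an interaction test (edgeR adjusted p = 0.00016).

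The other genotypes held phat-5 between N2 and egl-9. In egl-9;vhl-1 the mean was 1.92 ± 1.07 CPM, higher than the 0.226 ± 0.117 CPM of vhl-1 by 3.06 ± 0.59 (edgeR adjusted p = 0.0012). Against egl-9 the same genotype was not called, at −0.56 with an SE interval (2 SE to each side) of −1.35 to 0.23 (edgeR adjusted p = 0.45). In hif-1 alone phat-5 was 16.3-fold above N2 (counting interval 2.53 to 683, edgeR adjusted p = 0.022), at 0.608 ± 0.108 CPM, over the same N2 count. That call was lost without N2 replicate 1 (0.089), N2 replicate 2 (0.086) or hif-1 replicate 3 (0.057).

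Its neighbour phat-4 was measured with far more counts and moved less. Its estimated counts were not whole numbers in 5 libraries, by at most 0.176 counts. The N2 libraries were at 19.2, 30.1 and 36.1 CPM, the egl-9 libraries at 62.1, 43.7 and 75.1, and the rhy-1 libraries at 52.2, 63.9 and 63.9. The egl-9;vhl-1 libraries were at 46.2, 49.6 and 49.6 CPM. All libraries of these 3 mutants were above all N2 libraries.

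The remaining genotypes stayed near N2 in phat-4. The vhl-1 libraries were at 23.1, 38.4 and 16.5 CPM, the hif-1 libraries at 33.8, 31.1 and 31.2, and the egl-9 hif-1 libraries at 25.1, 20.6 and 18.7. Each of these genotypes overlapped N2, and none was called against it (edgeR adjusted p = 0.80, 0.66 and 0.39).

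In egl-9, phat-4 rose over N2 by 1.09 ± 0.24 on the log2 scale (edgeR adjusted p = 0.0024). In egl-9 hif-1 it was lower than in egl-9 by 2.82-fold, a log2 change of −1.50 ± 0.25 (edgeR adjusted p = 0.00016), and the interaction of egl-9 and hif-1 was −1.67 ± 0.35 (edgeR adjusted p = 0.0019). These 3 calls were made in all 21 fits with 1 library left out. In egl-9;vhl-1 phat-4 rose over N2 by 0.77 ± 0.24 (edgeR adjusted p = 0.019) and was above vhl-1 by 0.90 ± 0.25 (0.015). The first was lost without N2 replicate 1 (0.10) and the second without vhl-1 replicate 1 (0.061) or replicate 3 (0.077), and both were lost by transcripts (0.068 and 0.062). Between rhy-1 and egl-9 the difference was −0.01 with an SE interval of −0.48 to 0.46.

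On chromosome I, phat-2 was highest in egl-9 and rhy-1. It was at 6.65, 2.66 and 8.77 CPM in egl-9, at 4.77, 5.50 and 6.10 in rhy-1, and at 2.27, 1.65 and 1.93 in N2. It was at 0.275, 0.802 and 1.5 in egl-9;vhl-1, at 0.548, 1.34 and 0.230 in vhl-1, at 1.93, 1.36 and 1.49 in hif-1, and at 2.03, 0.944 and 1.17 in egl-9 hif-1. All egl-9 and rhy-1 libraries were above all libraries of the other genotypes, and egl-9 replicate 2 came closest to them.

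In egl-9, phat-2 rose over N2 by 1.62 ± 0.43 (edgeR adjusted p = 0.0087), a call lost without egl-9 replicate 3 (0.065) and by transcripts (0.097). It was lower in egl-9 hif-1 than in egl-9, at −2.14 ± 0.45 (edgeR adjusted p = 0.0017). It was also lower in egl-9;vhl-1 than in egl-9, by 6.71-fold or −2.75 ± 0.48 on the log2 scale (edgeR adjusted p = 0.0028), the only member called between these genotypes. Against vhl-1, egl-9 was higher by 3.07 ± 0.50 (edgeR adjusted p = 0.00027). The double mutant egl-9;vhl-1 was not called against vhl-1, at 0.32 with an SE interval of −0.91 to 1.56 (edgeR adjusted p = 0.80). The interaction of egl-9 and hif-1 was not called for phat-2 (edgeR adjusted p = 0.055), nor was that of egl-9 and vhl-1 (0.34).

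The gene phat-1 had few counts anywhere. They were 0, 0 and 0 in N2, 16, 3 and 11 in egl-9, 8, 15 and 11 in rhy-1, and 0, 9 and 0 in vhl-1. They were 1, 0 and 1 in hif-1, 0, 0 and 2 in egl-9 hif-1, and 0, 2 and 1 in egl-9;vhl-1. The egl-9 and rhy-1 libraries overlapped each other and, apart from vhl-1 replicate 2, were above all others.

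In egl-9, phat-1 was at least 10.8-fold above N2 (edgeR adjusted p = 0.0056), counting N2 at the floor of 3 counts over its libraries. In egl-9 hif-1 it was 16.7-fold below egl-9 (counting interval 4.24 to 144, edgeR adjusted p = 0.021), a call lost without egl-9 replicate 1 (0.092), egl-9 hif-1 replicate 1 (0.077) or egl-9 hif-1 replicate 2 (0.082). In egl-9;vhl-1 it was 10.8-fold below egl-9 (counting interval 3.37 to 55.5) and was not called (edgeR adjusted p = 0.063). Counting intervals cover counting error only. The gene passed the expression filter only through 4 libraries of egl-9 and rhy-1, and phat-5 only through 8 libraries of egl-9, rhy-1 and egl-9;vhl-1, so a difference of these genes between those genotypes and the rest was built into their being tested.

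The gene phat-3 ran the other way, with a caveat on its counts. The libraries were at 28.6, 24.0 and 23.1 CPM in N2, 15.9, 23.9 and 16.5 in egl-9, 17.4, 22 and 18.8 in rhy-1, and 15.4, 17.4 and 19.7 in egl-9;vhl-1. They were at 30.6, 31.6 and 28.6 in vhl-1, 21.5, 31.2 and 29.4 in hif-1, and 31.6, 25.0 and 25.7 in egl-9 hif-1. All egl-9;vhl-1 and rhy-1 libraries were below all N2 libraries, and those of egl-9 overlapped N2 through replicate 2.

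By edgeR's test phat-3 was lower in egl-9;vhl-1 than in N2 (−0.53 ± 0.16, adjusted p = 0.018) and than in vhl-1 (−0.79 ± 0.16, 0.0023). It was lower in egl-9 than in vhl-1 (−0.69 ± 0.16, edgeR adjusted p = 0.0074) and higher in egl-9 hif-1 than in egl-9 (0.55 ± 0.16, 0.021). The estimated counts of phat-3 and of phat-7, which lies 1470 bases away, were not whole numbers in any of the 21 libraries, whereas their sum was whole within 0.01 counts in 20 of them, so reads were divided between the genes. With both genes summed, none of these calls remained, at 0.28, −0.04, −0.19 and 0.02 in the same order (edgeR adjusted p = 0.054, 0.88, 0.33 and 0.94). Since phat-7 was at 174 to 225 CPM in the genotype means, the sum mostly follows phat-7, and phat-3 is uncertain.

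The gene phat-6 was highest in N2. It was at 6.0, 9.77 and 7.36 CPM in N2, 3.44, 3.32 and 4.21 in egl-9, 4.54, 4.71 and 3.55 in egl-9;vhl-1, and 5.56, 4.10 and 4.10 in rhy-1. It was at 4.38, 4.59 and 4.84 in vhl-1, 4.15, 6.31 and 5.46 in hif-1, and 4.79, 5.35 and 3.31 in egl-9 hif-1. All libraries of every mutant except hif-1 were below all N2 libraries.

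In egl-9, phat-6 fell against N2 by 1.07 ± 0.23 on the log2 scale (edgeR adjusted p = 0.0016), and in egl-9;vhl-1 by 0.85 ± 0.22 (0.0057). In vhl-1 it fell by 0.74 ± 0.22 (edgeR adjusted p = 0.033) and in egl-9 hif-1 by 0.78 ± 0.22 (0.040), calls made in 16 and 15 of the 21 fits with 1 library left out. Without N2 replicate 2, the library with the highest level, the adjusted p was 0.19 and 0.21. In hif-1 it was not called (−0.54, SE interval −0.98 to −0.10, edgeR adjusted p = 0.10). No comparison between mutants called phat-6.

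**Figure D2:**
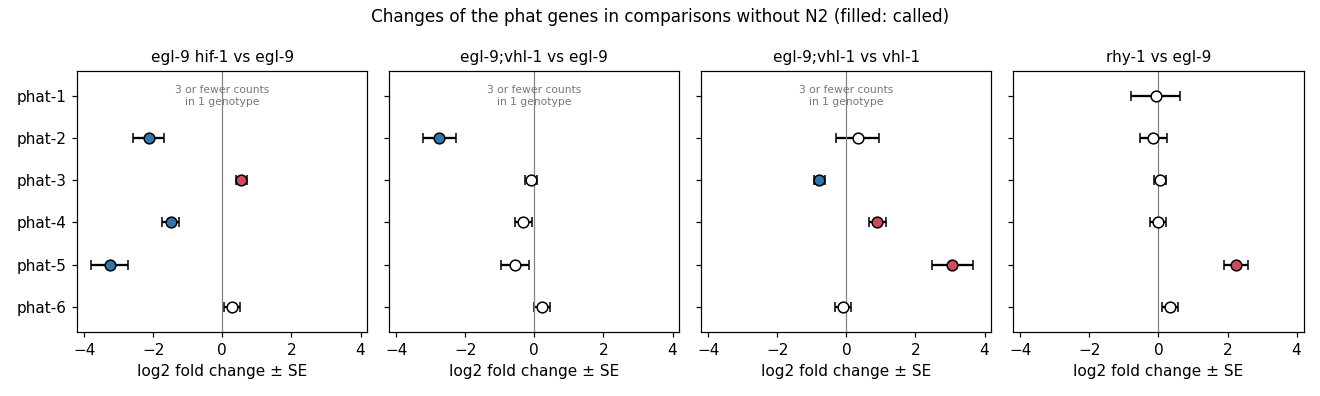
Log2 fold change with its SE (horizontal axis) of each phat gene in 4 comparisons that use no N2 library. Filled points were called by edgeR's quasi-likelihood test and open points were not. phat-1 is left out where 1 genotype had 3 or fewer counts. phat-2 is lowered in both double mutants against egl-9 (−2.14 and −2.75), and phat-5 alone is raised in rhy-1 against egl-9 (2.25).

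Counted over the members, 4 rose and 1 fell in egl-9 against N2, where 14.7% of all tested genes were called up and 11.1% down. Of these 4, phat-1 and phat-5 passed the filter only through mutants in which they were high. In egl-9;vhl-1 against N2 it was 2 up, phat-4 and phat-5, and 2 down, phat-3 and phat-6, with 16.5% and 18.2% of all genes. The filter limit of phat-5 holds there too, and the phat-3 call was lost with phat-7 summed. In vhl-1 0 rose and 1 fell (6.55% and 5.98% of all genes), in hif-1 1 rose and 0 fell (8.25% and 6.17%), and in egl-9 hif-1 0 rose and 1 fell (3.49% and 3.07%). These comparisons share the N2 libraries. In rhy-1, with no test, 4 members were at least 2-fold above N2 and 0 at least 2-fold below, where 10.0% and 2.42% of all genes were. The values there were at least 10.1-fold for phat-1, 1.47 on the log2 scale for phat-2, −0.38 for phat-3, 1.08 for phat-4 and −0.74 for phat-6.

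Among the mutants, egl-9 hif-1 against egl-9 had 1 member up and 4 down, where 8.20% of all genes were called up and 13.2% down. The member up was phat-3, whose call was lost with phat-7 summed. Those down included phat-1 and phat-5, which passed the filter only through egl-9 and other mutants in which they were high. Against hif-1, egl-9 hif-1 had 0 called in either direction by edgeR (12.8% and 17.7% of all genes), and phat-4 was at −0.58 (adjusted p = 0.087). The comparison of egl-9;vhl-1 with egl-9 gave 0 up and 1 down (1.79% and 6.70% of all genes), that with vhl-1 2 up and 1 down (7.17% and 10.0%), and egl-9 against vhl-1 3 up and 1 down (7.63% and 4.35%). In both comparisons with vhl-1, phat-5 was among the members up and phat-3 was the member down. Here too phat-5 passed the filter only through egl-9, rhy-1 and egl-9;vhl-1, and both phat-3 calls were lost with phat-7 summed. The interaction of egl-9 and hif-1 called 0 members up and 2 down, phat-4 and phat-5 (8.46% and 13.7% of all genes), and that of egl-9 and vhl-1 called 0 up and 1 down (3.05% and 5.74%). The last was phat-1 (edgeR adjusted p = 0.031), whose 9 counts in vhl-1 all came from vhl-1 replicate 2. This gene passed the filter only through egl-9 and rhy-1.

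Other genes of the pharynx were counted beside the phat genes. Of 5 further gland genes, hlh-6, the gland regulator, had 0 to 5 counts in every library and nas-12 was also too low to test. The other 3 were dod-6, kel-1 and scl-3. In egl-9 against N2, 0 of 3 were called by edgeR, at 0.22, 0.09 and −0.23 (adjusted p = 0.13, 0.91 and 0.25), and the median of the list was 0.09 beside 0.00 over all genes. In egl-9 hif-1 against egl-9, 0 of 3 were called as well (edgeR adjusted p = 0.34, 0.92 and 0.082). The secreted-protein gene scl-3 was lower in egl-9 than in vhl-1 (−0.60 ± 0.14, edgeR adjusted p = 0.0064) and lower in egl-9;vhl-1 than in vhl-1 (−0.59 ± 0.14, 0.0055). Against N2, 1 of the 3 was called up in vhl-1 and 1 in egl-9;vhl-1. The interaction of egl-9 and hif-1 called 1 down, and the other tested comparisons called 0. In rhy-1 against N2, given with no test, the list median was 0.51 beside 0.02 over all genes. The rhy-1 libraries were all above N2 in dod-6 (means 182 and 128 CPM) and all below it in scl-3 (27.9 and 33.5 CPM). They overlapped N2 in kel-1 (2.50 and 1.66 CPM). Of 7 genes of pharyngeal muscle and organ identity, 1 rose and 0 fell in egl-9 against N2, the riser being the organ identity factor gene pha-4 (0.54 ± 0.15, edgeR adjusted p = 0.010). In egl-9 hif-1 against egl-9, 1 of the 7 fell, the troponin gene tnt-4 (−0.48 ± 0.13, edgeR adjusted p = 0.0085).

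Genes of the cuticle that lines the pharynx rose in egl-9 as well. Of 13 tested, 13 rose in egl-9 against N2 with a median of 4.76, and 13 fell in egl-9 hif-1 against egl-9. In egl-9;vhl-1 against N2, 4 of 13 rose with a median of 2.38, while phat-2 was at −1.12 and not called (edgeR adjusted p = 0.11). In egl-9;vhl-1 against egl-9, 3 of 13 fell, among them abu-14 (−4.67 ± 1.11, edgeR adjusted p = 0.016). Set against N2, the list's mean log2 level was 5.10, 3.53 and 4.79 in the egl-9 libraries, 4.38, 4.19 and 4.42 in rhy-1, and 1.5, 0.19 and 3.52 in egl-9;vhl-1. Replicate 3 of egl-9;vhl-1 was thus level with egl-9 replicate 2, with phat-2 at 1.5 CPM against 2.66 CPM. The summed level of the list was 25.7 to 118 CPM in N2 and 574 to 1653 CPM in egl-9. Up to 3 of the 13 genes were at 0 in an N2 library, and 0 were in an egl-9 library.

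Genes of the last larval molt moved too. Of 16, 8 rose and 0 fell in egl-9 against N2, and 8 fell in egl-9 hif-1 against egl-9. The protease gene nas-36 rose in egl-9 by 3.71 ± 0.49 (edgeR adjusted p = 1.3e-05), mlt-10 by 4.31 ± 0.60 (2.2e-05), the period homologue lin-42 by 2.56 ± 0.41 (9.8e-05) and mlt-8 by 4.40 ± 0.84 (0.00057). Set against N2, their mean log2 level came to 2.94, 1.87 and 0.91 in egl-9, 2.81, 1.70 and 1.39 in rhy-1, 0.13, 1.18 and 0.12 in vhl-1, and 0.15, 1.8 and 0.22 in egl-9;vhl-1. Summed, the list was at 82.2 to 91.7 CPM in N2 and at 124 to 504.96 CPM in egl-9. Within genotypes the order of the libraries was not the same. In egl-9, replicate 3 had the lowest molt level and the highest phat-2, phat-4 and phat-5, while replicate 1 had the highest molt level, the highest phat-1 and the lowest phat-5. Replicate 2 of egl-9 had the lowest cuticle level and the lowest phat-1, phat-2 and phat-4. In vhl-1, replicate 2 had the highest molt level, the only phat-1 counts and the highest phat-2 and phat-4.

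Yolk and oocyte genes, markers of adult reproduction, went the opposite way. Of 13, 0 rose and 7 fell in egl-9 against N2, led by the vitellogenin gene vit-1 (−1.76 ± 0.22, edgeR adjusted p = 6.0e-06), and 8 rose and 0 fell in egl-9 hif-1 against egl-9. In egl-9;vhl-1 against egl-9, 5 rose and 0 fell. In egl-9;vhl-1 against N2 the genes were split, with 5 up, 3 down and a median log2 change of 0.002. Their summed level was 111853 to 146317 CPM in N2, 60799 to 95339 in egl-9, 91402 to 107462 in rhy-1, 102285 to 107854 in egl-9;vhl-1 and 151171 to 186755 in egl-9 hif-1. The part of the cuticle, molt and yolk lists in the phat differences was not tested. In egl-9 against N2, 6 of 6 HIF-1 target genes rose, a list that includes egl-9, the gene mutated there. In the same comparison 1 of 4 body wall muscle genes rose, 1 of 4 intestine genes rose and 1 fell, and 0 of 4 neuron genes were called by edgeR.

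With the highest molt library of egl-9, rhy-1 and vhl-1 left out together, a setting chosen after seeing the data, 5 members were called in egl-9 against N2, and 1 in egl-9;vhl-1 against egl-9. The calls of phat-3 were lost in egl-9 hif-1 against egl-9 (0.44, edgeR adjusted p = 0.12) and in egl-9 against vhl-1 (−0.55, adjusted p = 0.11). Those of phat-6 against N2 were lost too, with log2 changes as large as before, in vhl-1 (−0.74, edgeR adjusted p = 0.088) and in egl-9 hif-1 (−0.78, adjusted p = 0.0504). This setting did not remove the molt difference. The libraries kept were still at 1.87 and 0.91 in egl-9 and at 1.70 and 1.39 in rhy-1, with N2 at −0.04 to 0.04. The egl-9;vhl-1 library with a molt level of 1.8 was also kept. Whether the member calls depend on the molt level was therefore not tested.

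**Figure D3:**
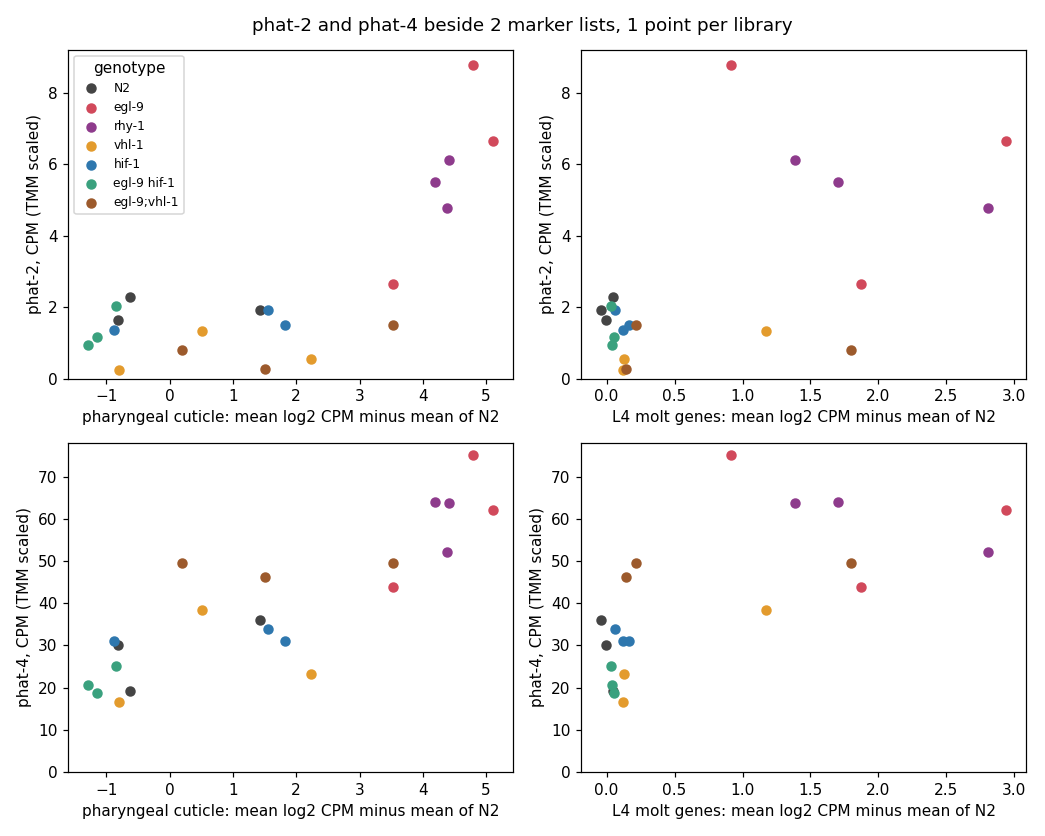
Level of phat-2 (top) and phat-4 (bottom) in CPM against the mean log2 level of pharyngeal cuticle genes (left) and L4 molt genes (right) relative to N2, with 1 point per library coloured by genotype. The egl-9;vhl-1 library with a molt level of 1.8 had phat-2 at 0.802 CPM and phat-4 at 49.6 CPM.

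The surroundings of phat-5 and phat-4 hold other genes that moved strongly. Counting phat-4 and phat-5, 15 protein-coding genes reach to within 20 kb of phat-4, and 8 of them were tested. The nuclear receptor gene nhr-57, a known target of HIF-1, starts 1.99 kb above the start of phat-4. Its mean level was 6.70 ± 1.33 CPM in N2, 427 ± 70.7 in egl-9, 47.4 ± 4.08 in vhl-1, 3.6 ± 0.210 in egl-9 hif-1 and 411 ± 22.6 in egl-9;vhl-1. It rose in egl-9 over N2 by 5.98 ± 0.14 (edgeR adjusted p = 1.0e-16), and it also rose in vhl-1 by 2.81 ± 0.13 (1.0e-11), where phat-4 was at −0.13.

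Between phat-5 and phat-4 lies T05B4.13, with 0 counts in N2, hif-1 and egl-9 hif-1, 1 in vhl-1, and means of 16.9 ± 2.26 CPM in egl-9, 12.2 ± 2.29 in rhy-1 and 22.4 ± 1.06 in egl-9;vhl-1. It was at least 149-fold higher in egl-9 than in N2 (edgeR adjusted p = 4.5e-09), and its estimated counts were not whole in 9 libraries. The ligand-gated channel gene lgc-1 starts 5.12 kb above the start of phat-4 and rose in egl-9 by 5.36 ± 0.48 (edgeR adjusted p = 9.4e-08). Both genes were lower in egl-9 hif-1 than in egl-9, T05B4.13 at least 154-fold (edgeR adjusted p = 4.1e-09) and lgc-1 at −5.16 ± 0.47 on the log2 scale (1.1e-07).

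These neighbours differed from phat-5 in rhy-1 against egl-9. There nhr-57 was lower (−0.46 ± 0.10, edgeR adjusted p = 0.0095), T05B4.13 was at −0.47 (0.17) and lgc-1 at −0.66 (0.21), while phat-5 was higher. The genes further out, clc-18, Y45G5AL.1 and Y45G5AM.6, were not called in egl-9 against N2 (−0.02, −0.01 and 0.08 on the log2 scale, edgeR adjusted p = 0.95, 0.94 and 0.78). In other comparisons clc-18 was called, higher in hif-1 than in N2 (0.99 ± 0.18, edgeR adjusted p = 0.0016). It was lower in egl-9;vhl-1 than in N2 (−0.92 ± 0.20, edgeR adjusted p = 0.0014), egl-9 (−0.90 ± 0.20, 0.012) and vhl-1 (−0.80 ± 0.20, 0.0086).

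Over all members, the 3 coding genes on each side came to 26 that are no member, of which 13 were tested. In egl-9 against N2, 7 rose and 2 fell, where 14.7% of all tested genes were called up and 11.1% down. Beside nhr-57, T05B4.13 and lgc-1, which lie together around phat-4, those that rose were lfe-2 (0.34) and C46H11.2 (0.89) near phat-1 and phat-2, and the collagen gene col-41 (1.74) and famk-1 (0.51) near phat-6. Those that fell were C49G7.12 (−2.48) near phat-3 and pkhm-2 (−0.34) near phat-6. In rhy-1 against egl-9, 3 of the genes next to phat-3 rose, C49G7.12 by 4.16 ± 0.57 (edgeR adjusted p = 8.7e-05), irg-2 by 3.82 ± 0.47 (2.7e-05) and C49G7.10 by 1.32 ± 0.35 (0.024), while phat-3 was not called. The remaining tested neighbours, phat-7 and T10B10.4, were not called in egl-9 against N2 (edgeR adjusted p = 0.26 and 0.23).

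**Figure D4:**
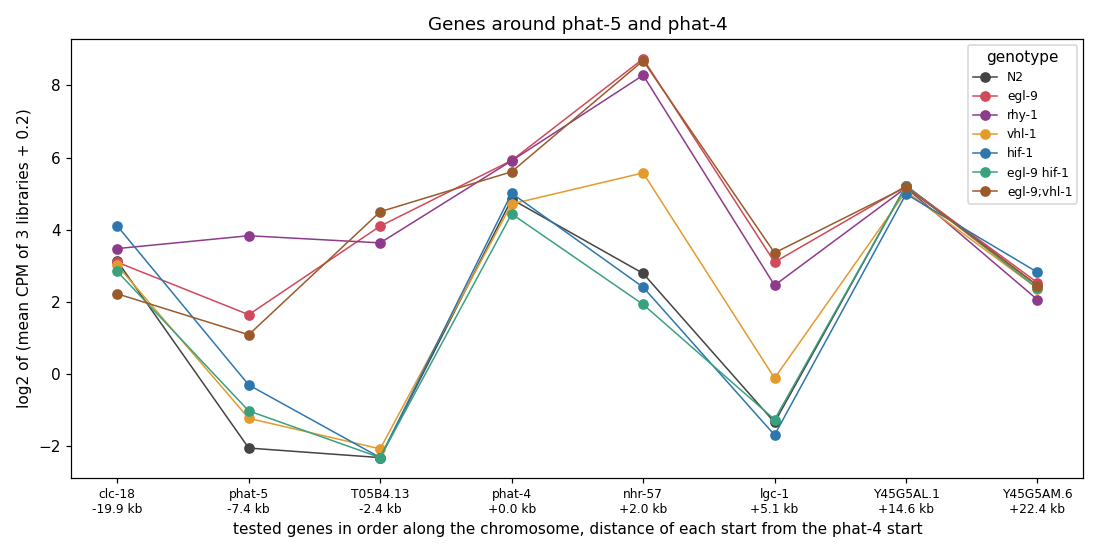
Log2 of the mean CPM of 3 libraries plus 0.2 for the 8 tested genes around phat-4, in chromosome order, with the distance of each start from that of phat-4 and 1 joined line per genotype. phat-5 is highest in rhy-1 (14 CPM), whereas T05B4.13, nhr-57 and lgc-1 have higher means in egl-9 and egl-9;vhl-1 than in rhy-1, and Y45G5AL.1 lies between 31.5 and 37.1 CPM in all genotypes.

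Genes whose levels followed the members over the 21 libraries were listed by the correlation of log2 CPM, which describes libraries that share genotypes and carries no test. Most like the mean of the 6 phat genes was the astacin protease gene nas-8 (Pearson r = 0.919, Spearman rho = 0.932), at 1.75 CPM in N2, 13 in egl-9 and 2.95 in egl-9;vhl-1. Then came Y57G11C.42 and R07B1.9 (both r = 0.912), cpg-22, lgmn-1 and F48G7.8 (each 0.909), and W08E12.2 and Y43F8B.3 (each 0.905). The gene cpg-22 was also the most like phat-2 (r = 0.878, rho = 0.818), followed by B0403.5 and toh-1. The genes most like phat-1 were lgx-1 (r = 0.956), abu-12 and itm-2, and for phat-4 they were tag-290 (r = 0.958, rho = 0.949), T03F6.4 and feh-1.

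The remaining members had other nearest genes. For phat-5 these were F35B12.9 (r = 0.924), C50F7.5 and Y55B1BL.1, of which C50F7.5 was also highest in rhy-1 (9.10 CPM, with 2.31 in egl-9 and 0.263 in N2). For phat-3 they were W10G11.2 (r = 0.844), the histidine ammonia-lyase gene haly-1 and uroc-1, and for phat-6 kat-1 (r = 0.759), pho-14 and vwa-8. Among the members, phat-4 and phat-5 correlated over all libraries (r = 0.777) and much less on deviations from the genotype means (0.045). For phat-2 and phat-4 these values were 0.652 and 0.663. Over all libraries, phat-3 and phat-6 each correlated negatively with phat-1, phat-2, phat-4 and phat-5 (r from −0.748 to −0.160). With each other they were at 0.273. The mean of the 6 genes thus combines members that moved in opposite directions.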

How the data were processed

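The authors deposited, per library, estimated counts and TPM per transcript. Per the submitters' processing notes, bcl2fastq 1.8.4 and kallisto were used. No kallisto version, transcript set or build is given in the sources used here. Of 32905 transcripts, 28369 matched Ensembl 115 (WBcel235) by transcript name, 4229 by sequence name and 307 matched none (0.102 to 0.127% of counts). The deposited estimated counts, which kallisto gives as fractions where reads are shared, were summed per gene and rounded. The deposited TPM were used only to compare genes per length.

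The 21 libraries were fitted together (edgeR 4.0.16, R 4.3.3, TMM, filterByExpr with a minimum count of 10, 12974 genes) with genotype as the only term. A call needed an adjusted p (Benjamini-Hochberg, over all tested genes) below 0.05, in 13 comparisons. The SE is the log2 fold change divided by the square root of F. The script was tested on simulated data. Counting intervals are 95%, and groups at 0 were set to 3 counts.

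Members and lists were chosen with earlier results of these data known. The text names all 6 members, up to 4 leading genes of a list described, those of the 3 coding neighbours on each side that were tested, and the 8 genes most like the members' mean and 3 most like each. Alternatives were other size factors, DESeq2 1.42.0, other filters, a replicate block, fits of only the genotypes compared, transcripts, and each library left out. Promoter motifs were not searched.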

Additional observations from a re-analysis of the deposited data

Results flagged for a closer look

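The effect of egl-9 on phat-4 and on phat-5 differed between worms with and without hif-1, by the interaction term of edgeR's quasi-likelihood fit (adjusted p = 0.00187 for phat-4 and 0.000161 for phat-5). Mean levels of phat-4 were 28.5 CPM in N2, 60.3 in egl-9, 32.0 in hif-1 and 21.5 in egl-9 hif-1. Those of phat-5 were 0.0402, 2.92, 0.608 and 0.291 CPM in the same order. The call for phat-4 was made in all 21 fits with 1 library left out. For phat-5 the N2 baseline was 1 count from libraries shared with the comparison treated as choosing the members, and the gene passed the filter only through egl-9, rhy-1 and egl-9;vhl-1, so its p is not independent of its selection.

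The effect of egl-9 on phat-1 differed between worms with and without vhl-1 (edgeR adjusted p = 0.0312), with 0 counts in N2, 30 in egl-9, 9 in vhl-1 and 3 in egl-9;vhl-1. It was called in 14 of the 21 fits with 1 library left out, and without vhl-1 replicate 2, which held all 9 counts of its genotype, the adjusted p was 1.0. The gene phat-1 passed the filter only through 4 libraries of egl-9 and rhy-1. Its N2 baseline is shared with the comparison treated as choosing the members, so its p is not independent of its selection.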

How the results depend on the processing

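RLE size factors and DESeq2 gave the same number of called members as TMM and edgeR in all 13 tested comparisons. In rhy-1 against N2, with no test, they gave the same number of members changed at least 2-fold. With only the genotypes compared in the fit, the number fell to 0 in vhl-1, hif-1 and egl-9 hif-1 against N2 (from 1 each), to 3 from 5 in egl-9 hif-1 against egl-9, and to 0 from 1 for the interaction of egl-9 and vhl-1, and rose to 1 from 0 in egl-9 hif-1 against hif-1. In the smaller fits phat-1, and phat-5 in part, did not pass the filter. These fits also gave 4 from 5 in egl-9 against N2, 3 from 4 in egl-9;vhl-1 against N2 and 2 from 3 in egl-9;vhl-1 against vhl-1. In egl-9 against vhl-1 they gave 3 from 4, with phat-4 lost (edgeR adjusted p = 0.067). In rhy-1 against N2, with no test, they gave 3 from 4. By transcripts the number fell to 0 in vhl-1 and egl-9 hif-1 against N2, in rhy-1 against egl-9 and for the interaction of egl-9 and vhl-1. It fell to 2 from 4 in egl-9;vhl-1 against N2, to 3 from 5 in egl-9 hif-1 against egl-9 and to 1 from 3 in egl-9;vhl-1 against vhl-1. It also fell to 4 from 5 in egl-9 against N2 and to 3 from 4 in egl-9 against vhl-1. Without a filter egl-9 hif-1 against N2 had 0, and with the stricter filter the interaction of egl-9 and vhl-1 had 0, since phat-1 was not tested. With the highest molt libraries left out, vhl-1 and egl-9 hif-1 against N2 and that interaction had 0, and egl-9 hif-1 against hif-1 had 1. This setting and the stricter filter each gave 4 from 5 in egl-9 hif-1 against egl-9. The stricter filter also gave 3 from 2 for the interaction of egl-9 and hif-1, and 3 from 4 in rhy-1 against N2, with no test. With phat-7 added, phat-3 in egl-9;vhl-1 against N2 turned from −0.53 to 0.28. Apart from the shared reads and the filter, the cause was not tested.

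Leaving out each library in turn gave 4 to 6 called members in egl-9 against N2, 0 to 1 in vhl-1, in hif-1 and in egl-9 hif-1, and 2 to 5 in egl-9;vhl-1. For rhy-1 against N2, which had no test, it gave 3 to 4 members changed at least 2-fold. Against egl-9 it gave 3 to 5 for egl-9 hif-1, 1 to 2 for egl-9;vhl-1 and 1 to 1 for rhy-1. It gave 0 to 1 for egl-9 hif-1 against hif-1, 2 to 3 for egl-9;vhl-1 and 3 to 5 for egl-9 against vhl-1, and 2 to 4 and 0 to 1 for the interactions with hif-1 and vhl-1.

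Over all genes, a fit of only the genotypes compared moved the calls against N2 from 3347 to 2191 in egl-9, 1626 to 919 in vhl-1, 1870 to 956 in hif-1 and 851 to 237 in egl-9 hif-1. That fit gave 770 in egl-9 against vhl-1 (from 1554), 579 in egl-9;vhl-1 against egl-9 (from 1101) and 51.9% of 971 in rhy-1 against egl-9. Testing transcripts gave 839 for vhl-1, 635 for hif-1 and 434 for egl-9 hif-1 against N2, 856 for egl-9 and 1426 for egl-9;vhl-1 against vhl-1 (the latter from 2232), 242 for egl-9;vhl-1 and 424 for rhy-1 against egl-9, 2407 for egl-9 hif-1 against hif-1 (from 3965) and 523 for the interaction with vhl-1 (from 1141). Without the highest molt libraries the calls were 1020 for vhl-1 against N2, 373 for egl-9;vhl-1 and 509 for rhy-1 against egl-9, and 559 for that interaction. With each library left out, the counts that moved by over 1.5 times ranged from 344 to 955 (egl-9 hif-1), 840 to 2256 (hif-1) and 975 to 1766 (vhl-1) against N2, from 245 to 1816 (egl-9;vhl-1) and 598 to 1021 (rhy-1) against egl-9, and from 685 to 1507 (interaction with vhl-1). The replicate numbers did not pair the libraries: in 0 of 12 comparisons did every same-numbered pair deviate together at r over 0.1 (r from −0.288 to 0.253). With the replicate block, 5 members were called in egl-9 against N2 and 0 member calls changed in any comparison. Depth limits phat-1 most, with at most 16 counts in a library.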
